A study of Mus musculus with 10 samples.

Results

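A set of 10 genes of fat cells was described here by array, in the cochlea of mice kept with or without a running wheel: Fabp4, Lpl, Cidec, Plin1, Lipe, Pck1, Adipoq, Lep, Retn and Cfd. They were listed by name as genes typical of adipocytes, with earlier results of these data known. Each was read from the probe set whose annotation gives that gene symbol alone. Of the 10 genes, 9 were measured, each by 1 probe set, among 29766 genes tested in all. Cfd, which encodes adipsin, was named by no such probe set and was not analysed here. All mice were CBA/CaJ, a strain whose hearing declines late in life, were 6 months old with normal hearing and were housed singly. The 5 samples labelled RW (runners) came from cages with a wheel and the 5 samples labelled Control from cages without one, with 1 array per sample and no other treatment named. The tissue is labelled cochlea, while the extraction protocol speaks of inner ear tissue ground to a powder. Sex and the distance run were not used here, and the labels leave unsaid whether the 5 arrays of a group stand for 5 different mice. If they do not, the p-values reflect technical spread.

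Levels are deposited log2 values per probe set, so a difference of 1 is a doubling, and levels of different genes cannot be set against each other. The median level of an array lay between 5.35 and 5.43 over the genes tested. Mean levels in controls were 9.82 for the muscle calcium pump gene Atp2a1, 11.8 for the neutrophil gene S100a9 and 10.6 for the cerebellar gene Gabra6. Of the cochlea itself, the hair cell gene Otof was at 6.36 and the strial transporter gene Slc12a2 at 9.41. In such bulk samples more fat cells and more transcript per fat cell cannot be told apart. Precision is limited by having 5 arrays in each group.

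Adipocytes store energy as triglyceride in a large lipid droplet and release it as fatty acids when other tissues need fuel. Lipoprotein lipase frees fatty acids from blood lipoproteins, carrier proteins such as FABP4 move them through the cell, and perilipin and CIDEC coat and fuse the droplet on which hormone-sensitive lipase acts. White fat also secretes hormones, among them leptin, adiponectin and, in rodents, resistin, and fat cells are found in bone marrow, around muscle and in loose connective tissue beside the ear. Many of these genes are known targets of PPARG and of C/EBP proteins, the factors that drive fat cell formation.

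The sequence just before the start of a gene is shown for the members that varied together most across the arrays (Cidec, Plin1 and Pck1) and for Lep, which did not vary with them. Windows of 300 bases, 250 before the start and 50 from it on, were taken from RefSeq (GRCm38.p6). The table held 10 windows for 8 of the genes, Cfd included, and none was used for Fabp4 and Lpl. The Cidec window shown is the one of 2 that lies at chr6:113434715-113435014 on the minus strand, that of Plin1 lies at chr7:79732727-79733026 on the minus strand, that of Pck1 at chr2:173152823-173153122 on the plus strand and that of Lep at chr6:29059971-29060270 on the plus strand. Capitals mark TTNNGCAA, a form of the C/EBP recognition sequence, read on either strand.
Cidec: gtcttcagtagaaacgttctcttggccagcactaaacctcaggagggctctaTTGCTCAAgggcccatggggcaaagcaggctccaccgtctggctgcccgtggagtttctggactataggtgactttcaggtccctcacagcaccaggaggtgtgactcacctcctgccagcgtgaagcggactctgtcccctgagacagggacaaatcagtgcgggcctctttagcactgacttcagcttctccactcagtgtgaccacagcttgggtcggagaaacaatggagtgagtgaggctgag
Plin1: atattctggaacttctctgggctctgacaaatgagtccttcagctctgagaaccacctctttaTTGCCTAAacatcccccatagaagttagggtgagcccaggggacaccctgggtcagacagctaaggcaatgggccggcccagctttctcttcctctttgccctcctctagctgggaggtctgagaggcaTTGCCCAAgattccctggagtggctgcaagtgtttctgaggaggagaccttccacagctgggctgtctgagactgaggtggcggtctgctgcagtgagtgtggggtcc
Pck1: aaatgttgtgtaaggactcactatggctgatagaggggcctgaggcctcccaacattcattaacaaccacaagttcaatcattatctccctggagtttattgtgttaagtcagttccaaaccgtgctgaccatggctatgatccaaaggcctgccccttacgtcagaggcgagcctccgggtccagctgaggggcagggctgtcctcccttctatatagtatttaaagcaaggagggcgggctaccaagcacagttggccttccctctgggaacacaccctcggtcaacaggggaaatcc
Lep: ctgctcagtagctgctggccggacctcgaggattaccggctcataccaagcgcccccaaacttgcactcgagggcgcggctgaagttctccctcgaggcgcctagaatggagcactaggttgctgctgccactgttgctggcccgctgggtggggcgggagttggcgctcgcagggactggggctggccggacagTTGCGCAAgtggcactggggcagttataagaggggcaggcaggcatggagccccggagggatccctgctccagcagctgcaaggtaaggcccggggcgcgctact

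TTNNGCAA was found in 3 of the 10 windows, those of Cidec, Plin1 and Lep, and in 10.8% of all 32851 windows of this length. In Lep the match reads TTGCGCAA on both strands and starts 55 bases before the start of the gene, at -55. Plin1 held it at -187 and -58 and the Cidec window shown at -198, while the other Cidec window held no match. The core AGGTCA of nuclear receptor sites was in 0 of the 10 windows, against 16.3% of all windows. Its direct repeat with 1 base between the copies, the form PPARG binds with its partner RXR, was in 0 of the 10 windows without mismatch, against 0.0396% of all. With up to 3 mismatches it was in 5 of the 10, against 24.6% of all. CACGTG was in 1 of the 10, a window of Lipe, against 7.15% of all. These are matches of letters in short windows and say nothing about binding.

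All 9 measured adipocyte genes had a higher mean level in runners than in controls, and for 6 of them, Fabp4, Cidec, Retn, Pck1, Lipe and Plin1, the difference had an unadjusted p under 0.05 in limma. Of all 29766 genes tested, 15024 had a higher mean in runners, and 3.21% were higher at that threshold. The members and the lists below were chosen with earlier results of these data known. Their counts, to be read beside these shares, are therefore a description. None of the 9 passed after adjustment over all genes, where 0.0% of genes (0 of 29766) were higher and 0.00672% (2 genes, Bglap and Bglap2 of osteocalcin, named after their values were seen) were lower at an adjusted p under 0.05. The median difference of the 9 was 0.32 on the log2 scale, and that of all genes was 0.00091. For 1 of the 9, Fabp4, all runners lay above all controls, as did 0.38% of all genes. Values below are for controls 1 to 5 and runners 1 to 5 in that order, with SD over n = 5 in each group, and differences are runner minus control with the moderated standard error.

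Of the genes of fatty acid uptake, Fabp4 separated the groups and Lpl did not. Fabp4, the fatty acid carrier of fat cells that capillary endothelium and macrophages also express, had log2 levels of 6.59, 6.98, 6.98, 7.14 and 7.02 in controls. In runners its levels were 7.44, 7.34, 7.83, 7.17 and 7.59. The lowest runner lay just above the highest control, and control 1 was far below the other controls. Its group means were 6.94 ± 0.21 (SD) and 7.48 ± 0.25 (SD), a difference of 0.53 ± 0.12 (SE) or 1.45-fold, with a limma adjusted p = 0.479. Lpl, which encodes lipoprotein lipase, had levels of 5.54, 5.82, 5.64, 6.07 and 5.92 in controls and of 5.73, 6.06, 6.37, 5.67 and 6.14 in runners. Runners 1, 2 and 4 lay within the range of the controls, and the highest value was that of runner 3. The Lpl difference was 0.20 ± 0.14 (SE), with a 95% confidence interval from -0.10 to 0.49 (limma adjusted p = 0.783).

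Of the lipid droplet genes, Cidec had the largest difference among the 9 genes. CIDEC is a droplet protein that promotes the fusion of small droplets into large ones. Its levels were 5.03, 5.36, 5.16, 5.67 and 5.45 in controls and 5.65, 6.12, 6.53, 5.65 and 6.38 in runners. Runners 2, 3 and 5 lay above every control, while runners 1 and 4 lay just below control 4. The difference was 0.73 ± 0.18 (SE), 1.66-fold, with a 95% confidence interval from 0.35 to 1.12 (limma adjusted p = 0.50).

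Plin1 encodes perilipin 1, the coat protein that controls access of lipases to the droplet. Its levels were 5.55, 5.81, 5.78, 6.00 and 5.91 in controls and 5.81, 6.21, 6.49, 5.78 and 6.35 in runners. The same 3 runners, 2, 3 and 5, exceeded every control, and runners 1 and 4 were near the middle of the controls. The difference was 0.32 ± 0.14 (SE; limma adjusted p = 0.666). Lipe, the gene of hormone-sensitive lipase, had levels of 6.07, 6.16, 6.14, 6.16 and 6.07 in controls and of 6.27, 6.32, 6.35, 6.08 and 6.43 in runners. Every runner but runner 4 exceeded every control, though the gap was small. The Lipe difference was 0.17 ± 0.066 (SE), 1.12-fold (limma adjusted p = 0.638). Plin1 missed the unadjusted threshold when any of runners 2, 3 and 5 or controls 1, 2 and 3 was left out, with differences from 0.23 without runner 3 to 0.32 without control 2, and also in the fit without moderation of the variances. Lipe missed it when any of runners 3 and 5 or controls 1 and 5 was left out, with differences from 0.13 without runner 5 to 0.16 without control 1, and also without runner 1 and control 1 together.

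Pck1 encodes the cytosolic carboxykinase that in fat supplies glycerol for the re-esterification of fatty acids. Its levels were 5.48, 5.63, 5.63, 5.84 and 5.78 in controls and 5.62, 6.08, 6.62, 5.89 and 6.58 in runners. Runners 3 and 5 stood highest and runner 1 lay below 4 of the 5 controls. Group means were 5.67 ± 0.14 (SD) and 6.16 ± 0.44 (SD), and the difference was 0.49 ± 0.17 (SE), 1.40-fold (limma adjusted p = 0.607). The Pck1 difference was 0.62 without runner 1 and 0.37 without runner 3.

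The secreted factors differed in their values. Retn, the gene of resistin, had levels of 4.01, 3.94, 4.21, 4.16 and 3.98 in controls and of 4.32, 4.18, 5.08, 4.53 and 4.64 in runners. Every runner but runner 2 exceeded every control, and runner 3 was the highest. The Retn difference was 0.49 ± 0.14 (SE), 1.40-fold (limma adjusted p = 0.569), and 0.36 without runner 3. Adipoq, the gene of adiponectin, had levels of 5.55, 5.75, 5.73, 5.95 and 5.96 in controls and of 6.08, 5.66, 6.02, 5.75 and 5.86 in runners. The groups overlapped over most of their range, and the difference was 0.084 ± 0.097 (SE), with a 95% confidence interval from -0.13 to 0.30 (limma adjusted p = 0.885). Lep, the gene of leptin, had levels of 3.93, 4.29, 4.20, 3.96 and 4.15 in controls and of 4.13, 4.09, 4.19, 4.29 and 4.21 in runners. The highest array was a control, and the difference was 0.074 ± 0.077 (SE), with a 95% confidence interval from -0.092 to 0.24 (limma adjusted p = 0.864). The upper bounds of Adipoq and Lep lay below the Fabp4, Cidec, Pck1 and Retn differences, and the differences between genes were not tested. Retn and Lep lay below the median level of every array, which was between 5.35 and 5.43. RMA understates differences of such dim genes, so the small Lep difference says little.

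**Figure D1:**
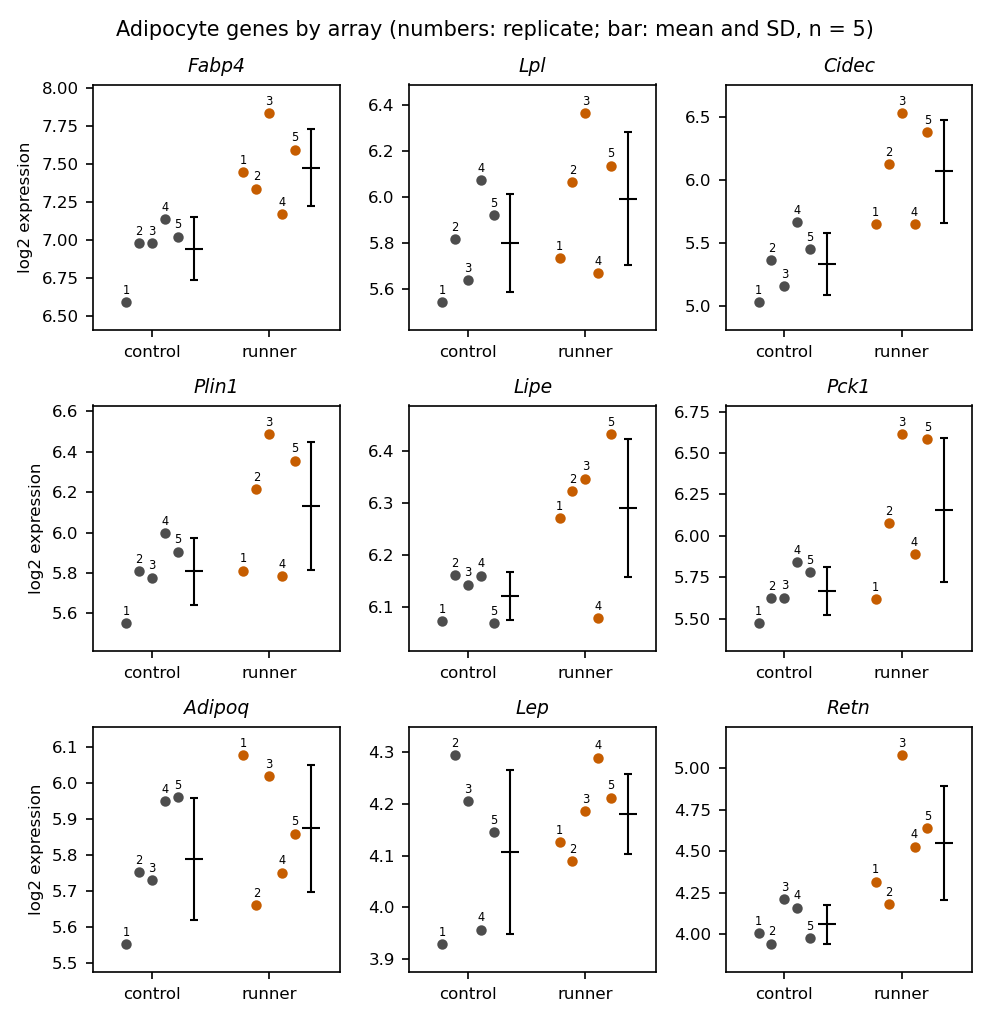
Log2 expression of the 9 measured adipocyte genes, 1 panel per gene, with 1 point per array numbered by replicate and with the mean and SD (n = 5) as bars; each vertical axis has its own range. Fabp4 is the gene whose groups do not overlap, with the lowest runner at 7.17 and the highest control at 7.14, while runners 3 and 5 stand highest among runners in most panels.

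The arrays kept a similar order from gene to gene. Runner 3 was the highest of the 10 arrays for 6 of the 9 genes, and control 1 was the lowest for 7. Averaged over the 9 genes after centring each on its own mean, runners 1 to 5 lay at -0.014, 0.10, 0.48, -0.041 and 0.34 and controls 1 to 5 at -0.38, -0.16, -0.19, -0.026 and -0.10. Runners 2, 3 and 5 were above every control, runner 1 was a little above control 4, and runner 4 was below it. The means were 0.17 ± 0.23 (SD) in runners and -0.17 ± 0.13 (SD) in controls, a difference of 0.34, which ranged from 0.27 without runner 3 to 0.40 without runner 4.

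Cidec, Plin1, Pck1 and Lpl formed the tightest group, described here after their values were seen. With each group's mean removed, so that the difference between runners and controls played no part, their 6 pairs had Pearson r from 0.86 to 0.98 over the 10 arrays. The median over all 36 pairs of the 9 genes was 0.57, from -0.098 for Lep with Lipe to 0.98 for Cidec with Lpl. Lpl thus followed Cidec from array to array although its group difference was small, whereas Adipoq had r = 0.37 and Lep r = -0.056 with Cidec. These coefficients describe 10 arrays processed together, and the genes share each array's tissue and RNA.

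**Figure D2:**
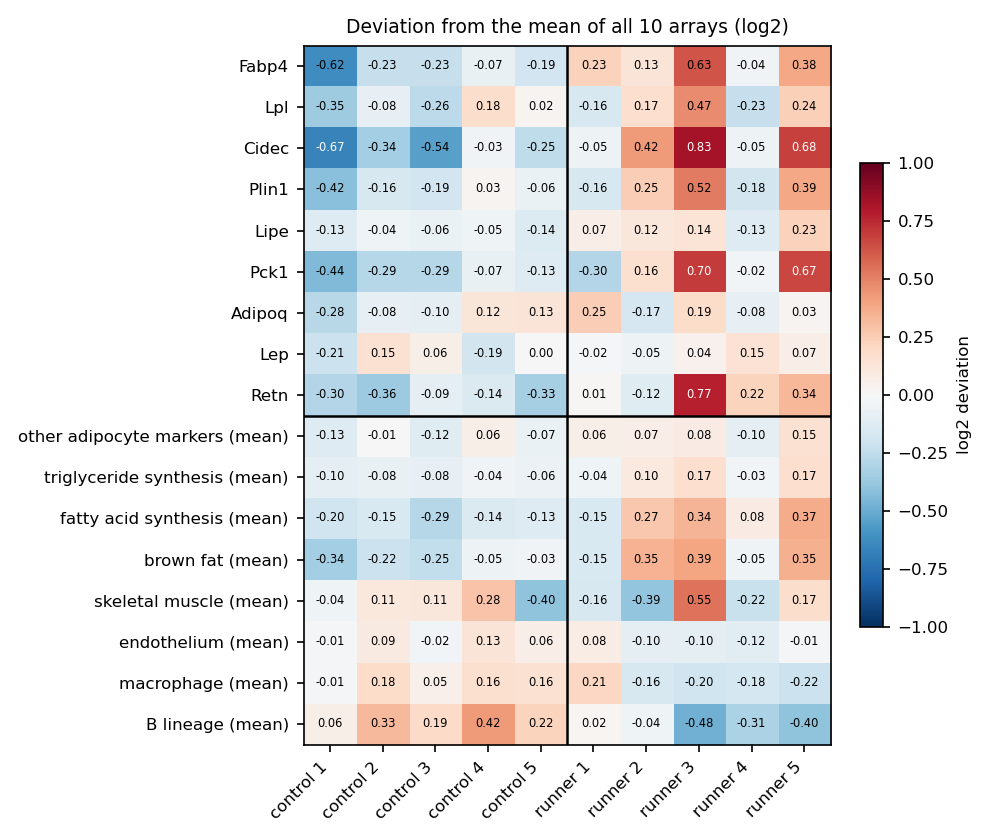
Deviation of each array from the mean of all 10 arrays on the log2 scale (colour and printed value), for the 9 adipocyte genes above the line and for the means of 8 gene lists below it, controls at the left and runners at the right. Runner 3 is the highest array for 6 of the 9 genes and control 1 the lowest for 7. The brown fat and fatty acid synthesis means are highest in runners 2, 3 and 5.

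By the likeness rule, the gene whose array pattern was closest to the mean of the 9 was Dgat2, which encodes an enzyme of the last step of triglyceride synthesis. Its r was 0.97 with group means removed and 0.99 over the 10 arrays as they are, the highest with group means removed among 29757 other genes apart from symbols not named here. Next came Slc27a2, a fatty acid transporter and acyl-CoA synthetase gene (0.94), Eif2b1 (0.93), Dync1li1 (0.93), Fastkd1 (0.92), Acad11, an acyl-CoA dehydrogenase gene (0.92), Ces1e (0.91) and Ephx2, the epoxide hydrolase gene (0.91). High coefficients are to be had by search among so many genes with 10 arrays, so this ranking is a description. Dgat2 levels were 6.87, 7.11, 7.07, 7.37 and 7.16 in controls and 7.24, 7.56, 7.93, 7.31 and 7.81 in runners. Its difference was 0.45 ± 0.13 (SE; limma adjusted p = 0.583), and the other 7 differed by -0.036 to 0.17.

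Further genes of mature fat cells were mostly higher in runners, by less. Of 14 measured, 12 were higher, 3 of them at an unadjusted p under 0.05, and 2 were lower, 1 of them at that threshold, against 3.92% of all genes that were lower in this way. The 3 were Orm1, an acute phase protein gene (0.43 ± 0.12 SE), Plin4, another perilipin (0.23 ± 0.080), and Adig, adipogenin (0.22 ± 0.094). The 1 lower gene, named here because it was seen to move the other way, was Car3, a carbonic anhydrase gene of fat and of slow muscle (-0.35 ± 0.16). The list's median difference was 0.10, and none passed over all genes.

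Of 9 genes of triglyceride synthesis 7 were higher, and 3 of these met the unadjusted threshold of 0.05, with a median difference of 0.087. Dgat2 and Gpd1, which makes glycerol phosphate (0.42 ± 0.12 SE), led them, followed by the phosphatidate phosphatase gene Lpin1 (0.14 ± 0.054). Gpd1 was lowest of all 10 arrays in runner 1, at 8.04, and lay between 8.59 and 8.91 in the other runners against 8.07 to 8.22 in controls. Without runner 1 it passed over all genes (limma adjusted p = 0.0162), and without runner 3 it did not (limma adjusted p = 0.873). Of 9 lipolysis genes, 4 were higher, 2 of them at an unadjusted p under 0.05, and 5 were lower. The 2 were Pnpla2, the first lipase of droplet breakdown (0.27 ± 0.077), and the phosphodiesterase gene Pde3b, which mediates the brake of insulin on lipolysis (0.25 ± 0.090).

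Among 12 regulators of lipoprotein lipase and lipid uptake, 8 were higher and 1 of these had an unadjusted p under 0.05. That gene was Angptl4, an inhibitor of lipoprotein lipase and a PPAR target. Its levels were 5.94, 6.02, 5.97, 5.98 and 5.87 in controls and 6.31, 6.17, 6.35, 6.27 and 6.33 in runners. All runners, including runner 1, lay above all controls, as they did for 0.38% of all genes. The Angptl4 difference was 0.33 ± 0.054 (SE; limma adjusted p = 0.141). Apoc1 differed by 0.21 ± 0.10 (SE), the transporter gene Slc27a4 by 0.089 ± 0.049 and Gpihbp1, whose product holds the lipase on capillary walls, by 0.093 ± 0.096.

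Regulators of fat cell formation showed no common direction. Of 15 measured, 9 were higher and 6 lower, with 1 at an unadjusted p under 0.05 each way, Lpin1 and the factor gene Ebf2 (-0.21 ± 0.075 SE), and a median difference of 0.051. Pparg, the master regulator of fat cells, had levels of 5.51, 5.77, 5.82, 5.90 and 5.93 in controls and of 5.80, 5.78, 5.87, 5.59 and 5.78 in runners. Its groups overlapped, and its difference was -0.020 ± 0.083 (SE), with a 95% confidence interval from -0.20 to 0.16 (limma adjusted p = 0.978).

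Receptors and partners of the secreted factors gave small differences in both directions, with 9 of 14 higher and a median of 0.010. Adiponectin receptor genes Adipor1 (-0.087 ± 0.057 SE) and Adipor2 (-0.030 ± 0.10) and the leptin receptor gene Lepr (-0.11 ± 0.12) had lower means in runners, with an unadjusted p above 0.05 for each. Without runner 1 the Adipor1 difference was -0.13 and its unadjusted p was under 0.05. C3ar1, the receptor gene of the complement fragment C3a (-0.35 ± 0.097), and Cfb (-0.17 ± 0.068), a substrate of adipsin, were lower at an unadjusted p under 0.05. Agt (0.13 ± 0.058) and Cdh13 (0.12 ± 0.052), named after their values were seen, were higher at that threshold. Of 10 insulin response genes, 4 were higher, with Trib1 (0.18 ± 0.067) at that threshold and Irs2 (0.13 ± 0.067) next. Of 12 other lipid droplet genes, 7 were higher, none at that threshold, with Plin5 at 0.12 ± 0.064, and Hsd17b13 was lower at it (-0.20 ± 0.074).

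**Figure D3:**
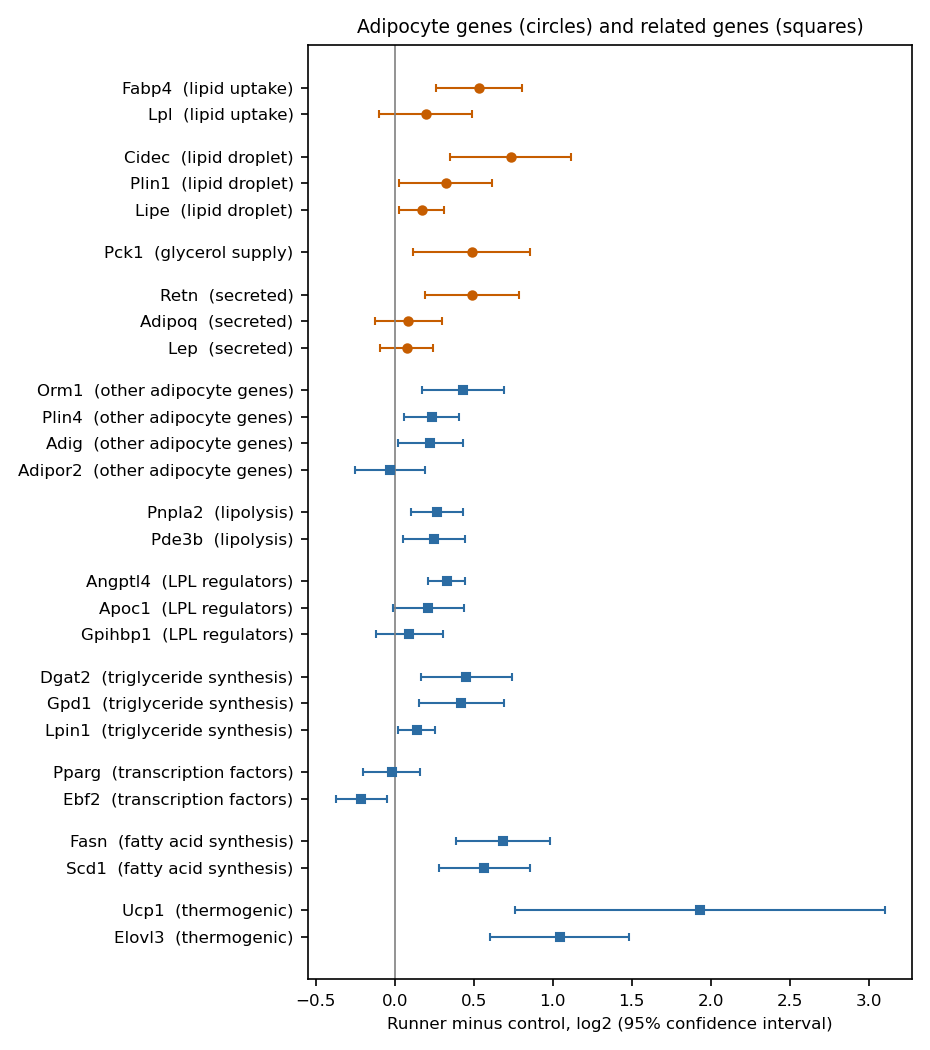
Difference in log2 level, runner minus control, with its 95% confidence interval, for the 9 measured adipocyte genes (circles) and for related genes from the lists (squares), grouped by role. Fabp4, Cidec, Pck1 and Retn lie between 0.49 and 0.73, Adipoq, Lep and Pparg lie near 0, and Ucp1 at 1.93 has the widest interval.

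Genes of fatty acid synthesis and of heat production belong to related groups and were not compared with the 9 by a test. All 8 measured fatty acid synthesis genes were higher, 5 at an unadjusted p under 0.05, with a median difference of 0.30. They included the fatty acid synthase gene Fasn (0.69 ± 0.14 SE; limma adjusted p = 0.293) and the desaturase gene Scd1 (0.57 ± 0.13). Thrsp (0.52 ± 0.12), Acaca (0.37 ± 0.10) and Acacb (0.23 ± 0.097), named after their values were seen, were the other 3. Fasn was at 8.39, 8.99, 9.12, 8.58 and 9.20 in runners and between 8.04 and 8.24 in controls. All runners thus lay above all controls, as they did for 0.38% of all genes.

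Of 10 thermogenic genes 8 were higher, 2 at an unadjusted p under 0.05, and the median difference was 0.092. Ucp1, which encodes the uncoupling protein that lets brown fat make heat, had log2 levels of 4.63, 5.24, 5.20, 6.26 and 6.65 in controls. In runners its levels were 5.56, 8.80, 8.20, 7.13 and 7.93. Runner 1 lay within the controls and the other 4 runners lay above them all. The difference was 1.93 ± 0.54 (SE), 3.81-fold (limma adjusted p = 0.569). Elovl3, a fatty acid elongase gene of brown fat and skin, differed by 1.04 ± 0.20 (SE), 2.06-fold (limma adjusted p = 0.279), and Pank1 by 0.13 ± 0.059. Elovl3 was dim, with a mean of 3.78 in controls and levels below the median of every array. The droplet gene Cidea, a relative of Cidec that brown fat expresses, differed by 0.38 ± 0.20 and was named after its values were seen. The rest of the list, also named after the fact, differed little, with an unadjusted p above 0.05 for each. Cox7a1 (0.099), Otop1 (0.084), Dio2 (0.055) and Ppargc1a (0.041) were higher, and Prdm16 (-0.082) and Cox8b (-0.12) were lower. The mean difference of the list, 0.36, lay above its median, with Ucp1 and Elovl3 the largest.

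**Figure D4:**
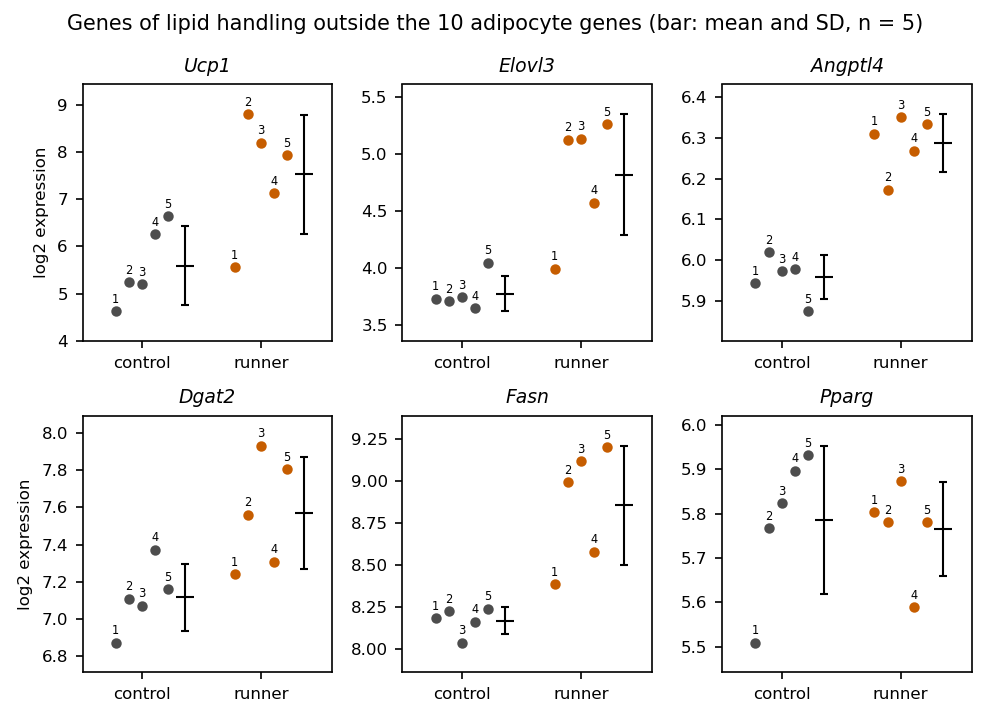
Log2 expression by array of 6 genes of lipid handling outside the 10 adipocyte genes, with replicate numbers and with the mean and SD (n = 5) as bars; each vertical axis has its own range. Angptl4 and Fasn have every runner above every control, Ucp1 and Elovl3 have runner 1 among or near the controls, and the Pparg groups overlap.

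Without runner 1, 44 genes were higher and 55 lower at an adjusted p under 0.05, and 0 of the 9 adipocyte genes were among them. Cidec then had a difference of 0.84 (limma adjusted p = 0.0598), Pck1 0.62 (limma adjusted p = 0.0796), Fabp4 0.54 (limma adjusted p = 0.0900) and Retn 0.55 (limma adjusted p = 0.0963). Among the related genes Elovl3 (limma adjusted p = 0.00619), Fasn (0.0170), Scd1 (0.0406), Ucp1 (0.0480) and Angptl4 (0.0487) passed without it. Runner 1 was the lowest runner for Elovl3, Fasn, Scd1 and Ucp1, so leaving it out widened those differences. Without runner 3 none of these genes passed, with Fasn at a limma adjusted p = 0.716 and Ucp1 at 0.873. The lowest limma adjusted p of the 9 adipocyte genes was then 0.870. Runner 1 was also the highest array in the mean of the macrophage genes, 0.21 above the mean of all arrays. In the mean of the neutrophil genes it was highest too, 0.31 above that of all arrays. The part of this in the values was not tested.

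Markers of other tissues did not all keep level between the groups. The mean level of 12 skeletal muscle genes lay between 8.05 and 8.73 in controls and between 8.06 and 8.99 in runners, with 5 genes higher and 7 lower and none at an unadjusted p under 0.05. Runner 3, the highest array for 6 of the 9 adipocyte genes, was also the highest in this list, 0.55 above the mean of all arrays, while runner 2 was at -0.39. Over the 10 arrays the muscle mean had r = 0.44 with the mean of the 9 genes, and r = 0.68 with group means removed, as a description. With the muscle mean as a covariate the 9 genes differed by 0.35 on average, against 0.34 without it, and 6 had an unadjusted p under 0.05 in both fits. The muscle mean itself differed between the groups by only -0.024, so this covariate could hardly change the group difference. What part muscle had was not tested. With array weights all 12 muscle genes were higher, none at that threshold.

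Markers of macrophages and of endothelium had lower means in runners. Macrophage genes were lower in 10 of 10 cases and met the unadjusted threshold of 0.05 in 5, their mean lying between 6.70 and 6.90 in controls and between 6.50 and 6.93 in runners. All 9 endothelial genes were lower, none at that threshold, with means of 6.54 to 6.69 and 6.44 to 6.64. Genes of fat cell precursors and marrow stroma were lower in 8 of 10, 2 of them at that threshold, the peptidase gene Dpp4 (-0.35 ± 0.095 SE) and Cd24a (-0.30 ± 0.10). All 9 B lineage genes were lower, with 8 at that threshold, and the list mean ran from 6.66 to 7.02 in controls and from 6.11 to 6.61 in runners. All 7 bone genes (6 at that threshold), all 5 erythroid genes (2), all 10 neutrophil genes (2), all 8 hair cell genes (3) and 7 of 8 strial genes (4) were lower too, while 6 of 7 brain genes were higher, none at that threshold. What part the mix of tissues in each sample had in the adipocyte values was not tested.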

How the data were processed

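Log2 expression values per probe set were deposited by the authors for 10 arrays. Per the submitters' processing notes the methods were RMA (background correction, quantile normalization and probe summary) and Partek. Versions, genome build and filters: not given in the sources used here. Quantile normalization hides changes shared by most genes, and RMA understates differences of dim genes. Of 39295 probe sets, 30130 had 1 gene symbol (a repeated symbol counted once), 2146 several and 7019 none in the platform annotation, and 827 symbols were updated through Entrez identifiers to RefSeq names. For 294 genes with several probe sets the one with the highest mean was kept.

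Runners and controls (5 and 5) were compared in limma 3.58.1 (R 4.3.3; lmFit, then eBayes) with a two-sided test of group and no covariate. P-values were adjusted by Benjamini-Hochberg over 29766 genes, with a threshold of 0.05. No test was made over the list. The members and gene lists were chosen with earlier results of these data known. Genes named were the members, the 2 or 3 of each pathway list with the smallest p and a few kept whatever their values. These few came from lists drawn up with earlier results known. Also named were the highest marker of each tissue list and the 8 closest in pattern, leaving out predicted, non-coding and multigene family symbols. The fit was tested on simulated data. Alternatives were a filter, other moderation, normalization, centring, array weights, other probe set choices, a replicate block, a muscle covariate and arrays left out. Figures used matplotlib 3.10.9 in Python 3.11.15.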

Additional observations from a re-analysis of the deposited data

Results flagged for a closer look

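In 114 groups of 5 arrays, over the genes named and the mean of the 9 adipocyte genes, 6 held 1 array that stood apart by Dixon's criterion (gap over range above 0.71), close to the 1 in 20 that chance gives. Among the adipocyte genes this was Fabp4 in control 1, at 6.59 against 6.98 for the next control. Outside them it was Elovl3 in control 5 (4.05, next 3.74), Scd1 in runner 1 (9.90, next 10.4), Dpp4 in runner 1 (6.27, next 5.89), Alas2 in runner 1 (9.98, next 9.53) and Slc27a4 in runner 5 (7.62, next 7.52).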

How the results depend on the processing

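The mean difference of the 9 adipocyte genes stayed above 0 under all 21 alternatives, at 0.27 to 0.40 when 1 array was left out, and 4 to 6 of the genes kept an unadjusted p under 0.05 then. In none of the 21 did any of the 9 pass at an adjusted p under 0.05, and the lowest was 0.0594, for Cidec without runner 1 and control 1. That fit and the fit without moderation each left 5 of the 9 below the unadjusted threshold, losing Lipe in the former and Plin1 in the latter. Without runner 1 and control 1 Adipoq turned to -0.026, the 1 reversal among the 9. The filter left 7 of the 9 genes, without Retn and Lep. With the replicate block the calls were as without it, at 6 of the 9 below the unadjusted threshold and, over all genes, 0 higher and 2 lower. Same-numbered arrays deviated together by r = -0.25, 0.061, 0.28, 0.070 and -0.19, and for runner 3 alone the same-numbered control was the closest. These values gave no clear sign of pairing by number and cannot settle whether the arrays were paired. Over all genes, calls moved from 0 higher and 2 lower to 1 lower without moderation, to 5 higher and 10 lower with array weights, and to 134 higher and 292 lower without runner 1 and control 1. With each array left out in turn, 0 to 44 genes were higher and 2 to 55 lower. With a threshold of 0.1 there were 0 higher and 2 lower.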
